A study of Mus musculus with 12 samples.

Results

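Expression was analyzed for 5 CXC chemokine genes linked to interferon responses, Cxcl9, Cxcl10, Cxcl11, Cxcl13 and Cxcl16, of 22243 genes in the table of M1-activated bone marrow-derived macrophages (BM-Mɸs). The genes were chosen by symbol, and each is represented by 1 transcript that the APPRIS annotation marks as the principal isoform. BM-Mɸs came from 6 LysMCre/ErbB4-floxed mice (ErbB4myeKO) and 6 ErbB4-floxed mice without Cre (ErbB4FF), on a C57Bl/6 background, 1 of each genotype from 6 litters. All 12 cultures were grown with conditioned medium containing M-CSF and then received IFN-γ (16 h at 100 U/mL) and after it LPS (6 h at 100 ng/mL), so that no unstimulated culture stands beside them. LysMCre is expressed across the myeloid lineage, the controls carry the same floxed Erbb4 alleles, and neither age nor sex is on the labels. The paper states that both sexes were used, and its own test was adjusted for litter and sex. Values are TPM, a transcript's share of all transcripts in a library, scaled for length so that genes can be compared. Here they cover principal isoforms alone, of which some other genes have more than 1.

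CXCL9, CXCL10 and CXCL11 are the ligands of CXCR3, a receptor on activated T cells and NK cells, and macrophages release them in response to interferon. IFN-γ acts on promoters at gamma-activated sites (GAS), type I interferon acts at interferon-stimulated response elements (ISRE), and LPS adds NF-κB and further interferon-β. CXCL16 is made as a transmembrane protein, binds CXCR6 and is shed by the proteases ADAM10 and ADAM17. CXCL13 binds CXCR5 and draws B cells into follicles, and it is best known from stromal and follicular dendritic cells. C57Bl/6 mice are known to carry a Cxcl11 allele that gives no functional protein, and the gene is annotated as a polymorphic pseudogene in GENCODE M21 and as a transcribed pseudogene in RefSeq, so its values describe the transcript only.

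Cxcl9 (ENSMUSG00000029417), Cxcl10 (ENSMUSG00000034855) and Cxcl11 (ENSMUSG00000060183) lie side by side on the minus strand of chromosome 5 of GRCm38, at 92321347 to 92328079, 92346638 to 92348889 and 92359544 to 92365485. Cxcl13 (ENSMUSG00000023078) lies further along the same chromosome at 95956951 to 95961068 on the plus strand, and Cxcl16 (ENSMUSG00000018920) is on the minus strand of chromosome 11 at 70453983 to 70459984. RefSeq promoter sequences on GRCm38.p6 matched 3 of the 5 genes, and the 250 bases before their starts are shown because Cxcl9 and Cxcl10 were the most abundant of the 5 transcripts and differed in their genotype ratios, whereas Cxcl13 was listed at 0 in most libraries. The windows are chr5:92328080-92328329 (minus strand) for Cxcl9, chr5:92348890-92349139 (minus strand) for Cxcl10 and chr5:95956689-95956938 (plus strand) for Cxcl13. Capitals mark matches on either strand to the ISRE letters (GAAA, any 2 bases, GAAA), the GAS letters (TTC, any 3 bases, GAA), the longer κB letters (GGGA, any 4 bases, CC), the shorter κB letters (GGGA, any base, TTCC) and CCAAT, where the κB spellings overlap each other in Cxcl10.
Cxcl9: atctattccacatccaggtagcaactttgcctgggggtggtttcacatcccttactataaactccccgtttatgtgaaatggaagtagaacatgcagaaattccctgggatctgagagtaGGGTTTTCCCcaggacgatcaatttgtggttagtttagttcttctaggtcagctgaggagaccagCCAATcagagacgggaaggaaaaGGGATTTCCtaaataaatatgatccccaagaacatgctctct
Cxcl10: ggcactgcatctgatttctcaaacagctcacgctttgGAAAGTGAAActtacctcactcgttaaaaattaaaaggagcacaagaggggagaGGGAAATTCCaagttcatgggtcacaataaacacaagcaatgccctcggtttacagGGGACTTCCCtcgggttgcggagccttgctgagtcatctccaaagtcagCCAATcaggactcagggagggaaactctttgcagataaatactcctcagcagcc
Cxcl13: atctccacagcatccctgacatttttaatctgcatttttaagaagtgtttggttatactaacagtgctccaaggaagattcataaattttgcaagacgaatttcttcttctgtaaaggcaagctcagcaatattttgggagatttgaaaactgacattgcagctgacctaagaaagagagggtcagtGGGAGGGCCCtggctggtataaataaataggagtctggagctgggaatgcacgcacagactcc
The ISRE letters occurred once among the 3 windows, in Cxcl10 at 213 to 204 bases before the start, and in 2.98% of 32851 windows of the same length. Cxcl10 also held κB letters at 159 to 150 and at 103 to 94 bases before its start. Cxcl9 held the longer κB spelling at 130 to 121 and the shorter at 42 to 34 bases before its start, and Cxcl13 the longer at 63 to 54. The longer spelling was found in 17.6% and the shorter in 1.43% of all windows. CCAAT stood at 65 to 61 bases before the start of Cxcl9 and at 54 to 50 in Cxcl10, against 33.8% of all windows, and the GAS letters (7.02% of all windows) were in none of the 3. These matches describe letters and were not tested as binding sites.

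The transcripts in the table held between 60.4% and 71.4% of all TPM in the libraries labelled ErbB4myeKO and between 59.0% and 74.7% in those labelled ErbB4FF, with 10214 to 12985 and 10910 to 12830 genes above 0. Erbb4 itself was 0.583 ± 0.242 TPM (SD, n = 6) in libraries labelled ErbB4myeKO and 0.450 ± 0.132 TPM (SD, n = 6) in those labelled ErbB4FF, and was higher in the former in 4 of 6 litters (two-sided exact permutation p = 0.250). Erbb4 was below 1 TPM in every library of both groups (highest 0.852 and 0.716 TPM, ErbB4myeKO first). Because of this low level, and because exons outside the floxed part count toward the value, it does not check the deletion. Libraries are called by their labels throughout. Lyz2, the locus that carries LysMCre, was 5305 ± 1985 TPM and 8277 ± 3445 TPM (SD, n = 6 each, ErbB4myeKO first, exact permutation p = 0.219). In limma, fitted with a litter term to the 8780 genes averaging 1 TPM or more, 0 genes (0%) had a Benjamini-Hochberg adjusted p under 0.05 (smallest 0.603), while 721 (8.21%) had an unadjusted p under 0.05. That number was 413 without litter 2, 458 without litter 4 and 75 without the litter term. TPM carry no read depth. A column of the authors gives each transcript's average ln of normalized estimated counts, which was 10.56 for Cxcl9, 9.48 for Cxcl10, 8.27 for Cxcl16 and 6.68 for Cxcl11, and these stand for 38461, 13130, 3889 and 796 estimated counts per library as geometric means, and no such mean is given for Cxcl13.

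Of the 5 genes, 4 passed the 1 TPM filter, and Cxcl13 did not. Levels set between genes depend on how reads were divided among isoforms, as other transcripts of the same gene hold 7.51% of the 31-mers of Cxcl9 but 97.6% for Cxcl10, 98.2% for Cxcl11 and 67.6% for Cxcl16. Cxcl9 and Cxcl10 ranked 38 and 39 of 22243 genes by mean TPM over the 12 libraries, Cxcl16 ranked 435, Cxcl11 ranked 870 and Cxcl13 ranked 10674. Their mean levels were 2354 TPM for Cxcl9, 2352 TPM for Cxcl10, 248 TPM for Cxcl16 and 102 TPM for Cxcl11. Cxcl9 and Cxcl10 did not differ beyond the spread between litters, as the log2 ratio of Cxcl9 to Cxcl10 TPM within a library, averaged per litter, was -0.04 ± 0.44 (SD, n = 6 litters, exact permutation p = 0.906) and Cxcl9 was the higher in 6 of 12 libraries. Its sign changed without litter 1 (0.0546) or litter 6 (0.0455). Cxcl10 exceeded Cxcl16 by 9.43-fold, in 12 of 12 libraries (log2 ratio 3.24 ± 0.53, SD, n = 6 litters, exact permutation p = 0.0312). Cxcl16 exceeded Cxcl11 by 2.70-fold, in 11 of 12 libraries (log2 ratio 1.43 ± 0.81, SD, n = 6 litters, exact permutation p = 0.0312), the exception being the library labelled ErbB4FF of litter 2. With 64 swaps over 6 litters, 0.0312 is the smallest p this test can give.

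Between the genotypes, Cxcl11 and Cxcl10 were lower in the library labelled ErbB4myeKO in 6 of 6 litters, whereas Cxcl9 and Cxcl16 were each higher in 4 of 6. Of the 8780 genes tested, 423 (4.82%) lay on the same side in every litter, 203 lower (2.31%) and 220 higher (2.51%). The shifts were about 32.4% lower for Cxcl11, 11.5% lower for Cxcl10, 15.8% higher for Cxcl9 and 7.97% higher for Cxcl16, as geometric means within litters after 0.5 was added to each TPM. None of the 4 passed limma's adjusted p of 0.05 over all genes, and all log2 ratios below are on the log2(TPM + 0.5) scale, from the library labelled ErbB4myeKO to its ErbB4FF littermate.

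Cxcl11 was between 27.2 and 123 TPM (median 88.9) in the libraries labelled ErbB4myeKO and between 49.0 and 219 TPM (median 118) in those labelled ErbB4FF. The ranges overlapped, and the separation was seen within litters. Littermate values, ErbB4myeKO first, were 93.1 and 129 TPM in litter 1, 91.3 and 219 in litter 2, 63.2 and 69.1 in litter 3, 123 and 163 in litter 4, 86.5 and 107 in litter 5, and 27.2 and 49.0 in litter 6. Its log2 ratios averaged -0.57 ± 0.41 (SD, n = 6 litters, exact permutation p = 0.0312), with the widest gap in litter 2 (-1.26) and the narrowest in litter 3 (-0.13). In limma the standard error was 0.14, the unadjusted p was 0.00503, rank 33 of 8780, and the adjusted p was 0.603. Other genes hold 3.16% of its 31-mers.

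Cxcl10 ranged from 1333 to 3256 TPM (median 2163) in the libraries labelled ErbB4myeKO and from 1744 to 3448 TPM (median 2337) in those labelled ErbB4FF, again with overlapping groups. In litters 1 to 6 the log2 ratio was -0.24, -0.07, -0.12, -0.16, -0.08 and -0.39. Its mean was -0.18 ± 0.12 (SD, n = 6 litters, exact permutation p = 0.0312), with a limma standard error of 0.06, an unadjusted p of 0.0214 and an adjusted p of 0.603. This difference was smaller than that of Cxcl11 but had a smaller SD over litters. In 5 of 15 alternatives to the processing limma's unadjusted p of Cxcl10 was above 0.05, and for Cxcl11 this was so in 1, the fit without litters. The 5 were that fit, limma without its trend, and leaving out litter 1, 4 or 6, with limma p of 0.0651, 0.0509 and 0.0611 where 5 litters allow no exact permutation p below 0.0625. Of its 31-mers, 9.68% lie antisense to transcripts of Art3, an overlapping gene on the opposite strand that was at 0.0241 TPM.

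Cxcl9 lay between 1407 and 3165 TPM in the libraries labelled ErbB4myeKO, with a mean of 2484 ± 709 (SD, n = 6), and between 886 and 3217 TPM in those labelled ErbB4FF, with a mean of 2225 ± 825 (SD, n = 6). The libraries of litter 6 were the lowest of both groups. The log2 ratio was 0.13, 0.44, -0.02, -0.01, 0.07 and 0.67 in litters 1 to 6, so that litters 2 and 6 carried most of the mean of 0.21 ± 0.28 (SD, n = 6 litters, exact permutation p = 0.125). Limma gave a standard error of 0.10 and an adjusted p of 0.603, and the mean was 0.12 without litter 6.

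The mean level of Cxcl16 with an ErbB4myeKO label was 256 ± 57.9 TPM and with an ErbB4FF label 240 ± 69.7 TPM (SD, n = 6 each), and the libraries ranged from 190 to 328 TPM and from 178 to 341 TPM. Its log2 ratio was between 0.07 and 0.28 in litters 1, 2, 4 and 5 and was -0.09 and -0.13 in litters 3 and 6, with a mean of 0.11 ± 0.19 (SD, n = 6 litters, exact permutation p = 0.219). Limma's standard error was 0.08 and its adjusted p 0.671. Reads of Cxcl16 can be shared with Zmynd15 on the opposite strand, since 21.6% of its 31-mers lie antisense to that gene's transcripts, and Zmynd15 was at 5.41 TPM.

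Cxcl13 was listed at 0 TPM in 11 of the 12 libraries and at 2.99 TPM in the library labelled ErbB4FF of litter 6. No fold is given. A 0 in this table can be a failed estimate as well as an absence of reads, and the table gives no read total for a library.

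**Figure D1:**
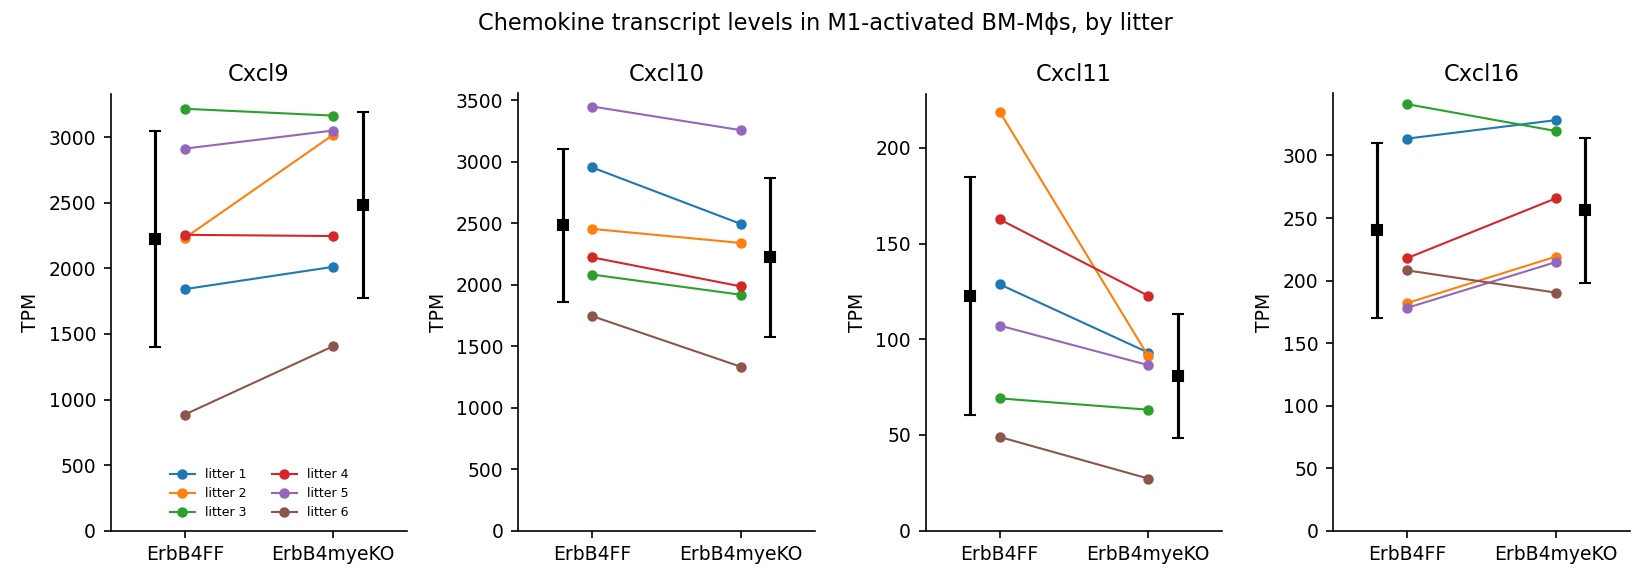
TPM (linear axes from 0) of Cxcl9, Cxcl10, Cxcl11 and Cxcl16 in the libraries labelled ErbB4FF and ErbB4myeKO, with a line for each of 6 litters and squares with bars for the mean ± SD of a group. Every line of Cxcl10 and Cxcl11 slopes down, and the groups overlap for all 4 genes.

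**Figure D2:**
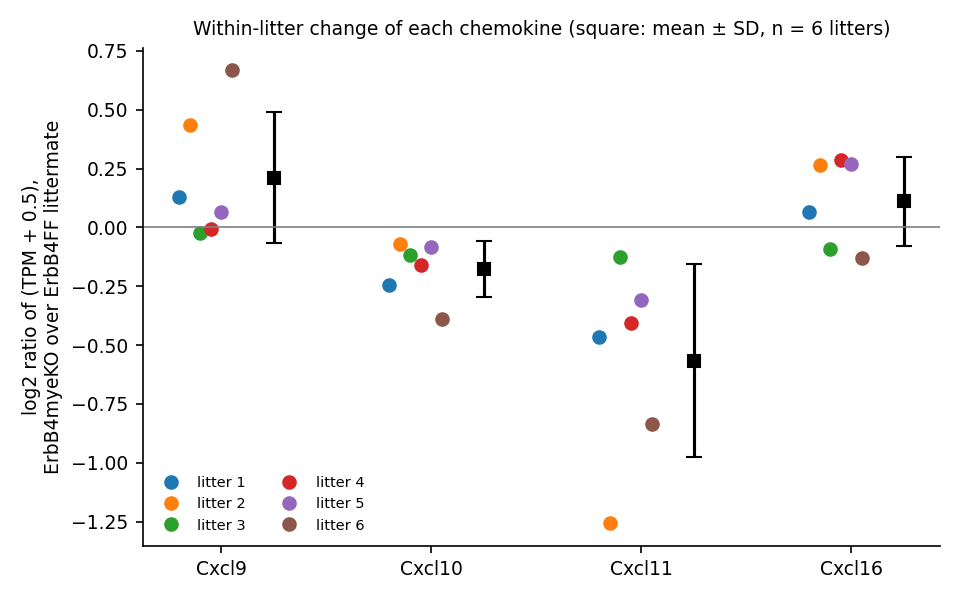
Within-litter log2 ratio of (TPM + 0.5), library labelled ErbB4myeKO over its ErbB4FF littermate, for 4 chemokines, with 1 point per litter and squares with bars for the mean ± SD (n = 6 litters). Cxcl11 reaches -1.26 in litter 2 and Cxcl9 reaches 0.67 in litter 6, while Cxcl10 stays between -0.39 and -0.07.

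To ask whether the chemokines changed by different amounts, the log2 ratios of each pair of the 4 were subtracted within litters, which gave 6 pairs tested by exact permutation with Benjamini-Hochberg adjustment over the 6. Cxcl10 and Cxcl11 both differed from Cxcl9 and from Cxcl16, and from each other. The ratio of Cxcl9 was above that of Cxcl10 by 0.39 ± 0.36 (SD, n = 6 litters) and above that of Cxcl11 by 0.78 ± 0.66 (SD, n = 6 litters), in 6 of 6 litters each. Cxcl10 lay above Cxcl11 by 0.39 ± 0.42 (SD, n = 6 litters), with 0.01 as the least (litter 3) and 1.19 as the most (litter 2). Relative to Cxcl16, Cxcl10 was lower by 0.29 ± 0.14 and Cxcl11 by 0.68 ± 0.48 (SD, n = 6 litters each), in 6 of 6 litters. Each of these 5 differences had an exact permutation p of 0.0312 and an adjusted p of 0.0375, and the difference between Cxcl9 and Cxcl16 was 0.10 ± 0.38 (SD, n = 6 litters, exact permutation p = 0.656, adjusted p = 0.656). The value of 0.0312 is the smallest that 6 litters allow, and the 6 pairs reuse the same 4 genes. How often other pairs of genes differ in 6 of 6 litters was not counted. Leaving out litter 6 reduced the difference between Cxcl9 and Cxcl10 to 0.25, and leaving out litter 2 reduced that between Cxcl10 and Cxcl11 to 0.23.

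The shift can be read as the balance among the CXCR3 ligand transcripts, which uses the same values and was given no further test. Cxcl9 TPM divided by Cxcl10 TPM went from 0.624 to 0.807 in litter 1, from 0.910 to 1.29 in litter 2, from 1.55 to 1.65 in litter 3, from 1.02 to 1.13 in litter 4, from 0.845 to 0.937 in litter 5 and from 0.508 to 1.06 in litter 6, ErbB4FF first. Both libraries held more Cxcl9 than Cxcl10 in litters 3 and 4, and less in litters 1 and 5. Cxcl9 made up 44.9 ± 9.34% of the summed TPM of the 3 ligands in libraries labelled ErbB4FF and 51.8 ± 6.16% in those labelled ErbB4myeKO (SD, n = 6 each). The share of Cxcl10 was 52.5 ± 9.28% and 46.5 ± 6.01%, and that of Cxcl11 was 2.56 ± 1.22% and 1.68 ± 0.664% (SD, n = 6 each). The sum itself was 4831 ± 1237 TPM in libraries labelled ErbB4FF and 4786 ± 1221 TPM in those labelled ErbB4myeKO (SD, n = 6 each), lower in the latter in 4 of 6 litters.

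**Figure D3:**
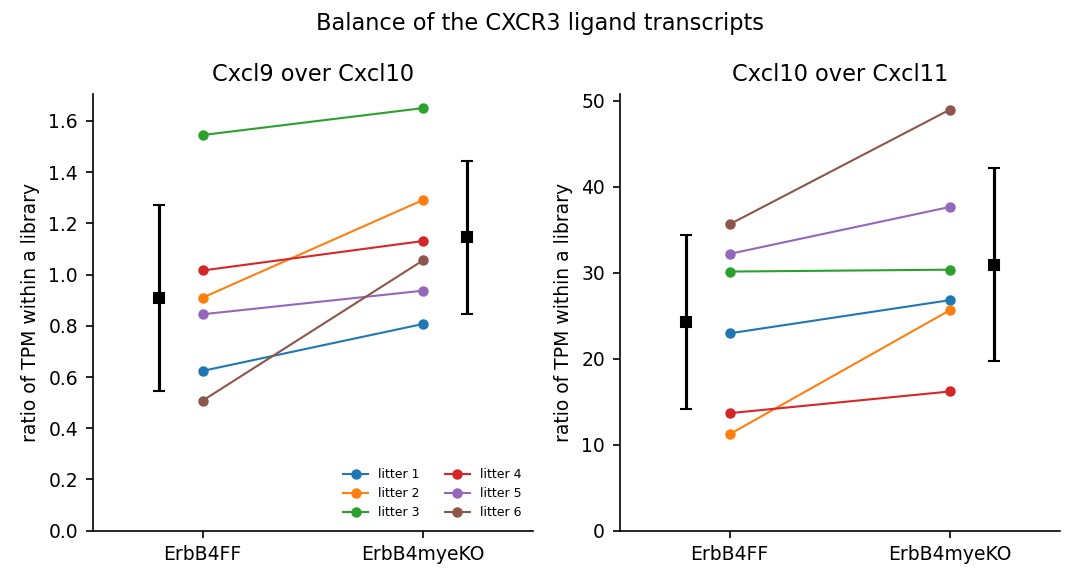
Ratio of TPM within a library (linear axes from 0), Cxcl9 over Cxcl10 and Cxcl10 over Cxcl11, in libraries labelled ErbB4FF and ErbB4myeKO, with a line for each of 6 litters and squares with bars for the mean ± SD of a group. All 6 lines rise in both panels, from a mean of 0.908 to 1.15 and from 24.3 to 30.9.

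From the lowest to the highest litter, taking the geometric mean of both libraries, Cxcl11 spanned 3.87-fold, Cxcl9 2.86-fold, Cxcl10 2.20-fold and Cxcl16 1.69-fold. Each litter is also a batch of its own (A to F), so differences between litters and between batches cannot be told apart. Without litter 6 the spans were 2.14-fold, 1.66-fold, 1.68-fold and 1.69-fold. Litter 6 was the lowest for all 3 CXCR3 ligands, at 1116 TPM for Cxcl9, 1525 TPM for Cxcl10 and 36.5 TPM for Cxcl11, but not for Cxcl16, where litter 5 was the lowest at 196 TPM and litter 6 was at 199 TPM. Across the 12 libraries, which share litters, the log2 levels of Cxcl10 and Cxcl11 had a Pearson r of 0.638, Cxcl9 and Cxcl10 of 0.501, and Cxcl9 and Cxcl11 of 0.369, while Cxcl16 had r between -0.03 and 0.23 with the 3 ligands.

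The sizes of the genotype effects were also compared across the 6 litters, in 6 pairs of genes. Cxcl9 and Cxcl11 had the strongest relation, in which litters with a higher ratio of Cxcl9 had a lower ratio of Cxcl11 (Pearson r = -0.806, exact permutation p = 0.0403; Spearman rho = -0.886, exact permutation p = 0.0333). It did not pass the adjustment over the 6 pairs (exact permutation p adjusted to 0.242 and 0.20), and r was -0.673 without litters 2 and 6, the farthest from the median of Cxcl9. For the other 5 pairs r was between -0.575 and 0.660, with adjusted exact permutation p of at least 0.461.

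By the rule of likeness, the Pearson r of log2(TPM + 0.5) over the 12 libraries among 5775 genes averaging 5 TPM or more, the genes nearest to Cxcl11 were Gpr65 (r = 0.946), Arl5a (0.944) and Vsir (0.942), and those nearest to Cxcl10 were Csrnp1 (0.888), Nudt9 (0.880) and Arl4a (0.880). Nearest to Cxcl9 were Got1 (0.902), Btg1 (0.890) and Igfbp4 (0.876), and nearest to Cxcl16 were Ripk2 (0.936), Tnfrsf13b (0.924) and Rcbtb1 (0.916). The median r of all 5775 genes lay between -0.06 and 0.04 for the 4 chemokines. No gene was among the nearest of more than 1 chemokine.

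Genes around the chemokine pathway were read from lists that were chosen with earlier results of these data known. In them, 0 genes of any list passed limma's adjusted p. The counts that follow are at an unadjusted p under 0.05, against 3.83% of all genes higher and 4.38% lower in libraries labelled ErbB4myeKO. The median log2 ratio of all 8780 genes was 0.00. Of 8 receptors and processing enzymes, 3 passed the filter and 1 was higher. Adam17, a sheddase of CXCL16, was 113 ± 28.5 and 102 ± 28.02 TPM (SD, n = 6 each, ErbB4myeKO first), with a log2 ratio of 0.16 and a limma SE of 0.06 (exact permutation p = 0.0625). Adam10, the other sheddase, was at 28.8 TPM (log2 ratio 0.10, SE 0.08, exact permutation p = 0.125), and Cxcr3 was at 1.76 TPM (log2 ratio 0.20, SE 0.33). Cxcr5 and Cxcr6, the receptors of CXCL13 and CXCL16, had means of 0.0905 and 0.187 TPM.

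Among 21 genes of interferon and LPS signaling, all of which passed the filter, 3 were lower and 1 was higher. Ifngr2, the signaling chain of the IFN-γ receptor, was 97.9 ± 16.3 and 112 ± 18.9 TPM (SD, n = 6 each, ErbB4myeKO first) and lower in 6 of 6 litters (log2 ratio -0.20, SE 0.06, limma p = 0.0103, exact permutation p = 0.0312). Stat2, a subunit of the factor that binds ISREs, and Irf7, which drives type I interferon genes, were lower in 5 of 6 litters, by log2 ratios of -0.19 and -0.36 (SE 0.08 and 0.15, exact permutation p = 0.0625 and 0.0938). Tyk2, a kinase of the type I interferon receptor, had a log2 ratio of 1.03 (SE 0.40, exact permutation p = 0.0625) but was at 5.49 TPM with an SD above the mean in both groups. Irf1 and Irf8, interferon-induced transcription factors, had log2 ratios of -0.05 and 0.02 (SE 0.06 and 0.08, exact permutation p = 0.469 and 0.906). Of 6 feedback inhibitors, 0 were past the threshold, and the log2 ratios of Nfkbia, Usp18 and Socs3, which restrain NF-κB, type I interferon and cytokine signaling, were -0.00, -0.21 and -0.12 (exact permutation p = 1, 0.156 and 0.344).

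Among other interferon targets, 5 of 22 were past the unadjusted threshold, all 5 lower. All 10 type I interferon targets had a log2 ratio below 0, with a median of -0.31, and 3 of them were past the threshold, Cmpk2, Rsad2 and Isg15, at log2 ratios of -0.49, -0.47 and -0.30 (SE 0.19, 0.19 and 0.12, exact permutation p = 0.0938 each). Cmpk2 and Rsad2 are neighbours that encode a nucleotide kinase and viperin, Isg15 encodes a ubiquitin-like protein, and each was lower in 5 of 6 litters. Oasl1 and Ifit2, abundant antiviral genes, had log2 ratios of -0.10 and -0.42 (SE 0.10 and 0.21, exact permutation p = 0.344 and 0.156). Of 12 IFN-γ targets, 9 had a log2 ratio below 0 and 3 above (median -0.07), and 2 were past the threshold, the immunoproteasome subunits Psmb8 (log2 ratio -0.22, SE 0.07, exact permutation p = 0.0625) and Psmb9 (-0.20, SE 0.08, exact permutation p = 0.0312, lower in 6 of 6 litters). Gbp2, Gbp5 and Cd274, 2 guanylate-binding proteins and the gene of PD-L1, had log2 ratios of -0.04, -0.09 and -0.02 (exact permutation p = 0.344, 0.125 and 0.562). The other CXC chemokines lay on the opposite side of 0, as 7 of 10 passed the filter and all 7 had a log2 ratio above 0 (median 0.78). The neutrophil attractants Cxcl1 and Cxcl3 were past the threshold at 1.14 and 1.26 (SE 0.39 and 0.46, exact permutation p = 0.0312 each), and Cxcl2 had 1.09 (SE 0.47, exact permutation p = 0.0625). Their spread was wide, at 471 ± 441 and 303 ± 418 TPM for Cxcl1 (SD, n = 6 each, ErbB4myeKO first). Cxcl3 was 326 ± 340 and 205 ± 244 TPM, and Cxcl2 was 3046 ± 2480 and 1835 ± 2161 TPM. The SD of the log2 ratio over litters was 1.17 for Cxcl1, 1.39 for Cxcl3 and 1.42 for Cxcl2. Genes within a list share regulators and libraries, so these counts describe the lists and are not a test of them.

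**Figure D4:**
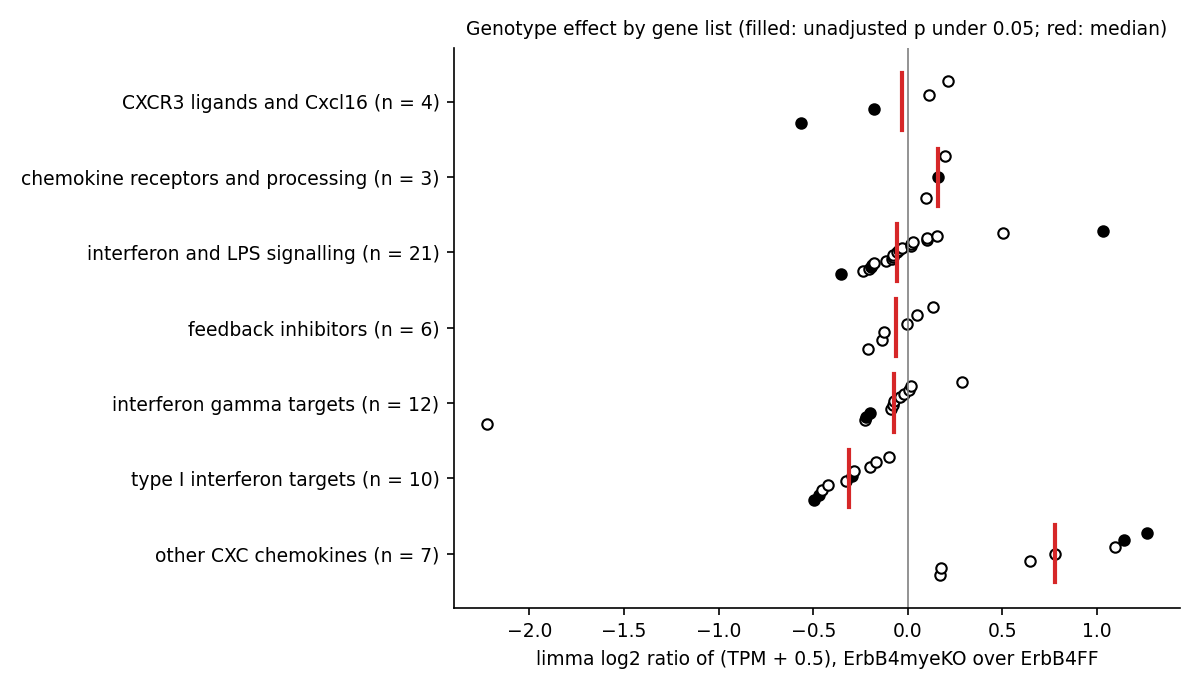
Limma log2 ratio of (TPM + 0.5), ErbB4myeKO over ErbB4FF labels, for the 4 chemokines and 6 gene lists, with 1 point per gene that passed the filter, filled where the unadjusted p was under 0.05, and a red line at the median. The type I interferon targets lie below 0 with a median of -0.31 and the other CXC chemokines above 0 with a median of 0.78, while Cxcl10 and Cxcl11 lie below 0 and Cxcl9 and Cxcl16 above it.

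The macrophage label was checked with 7 markers, which all passed the filter and summed to 2602 to 6223 TPM in libraries labelled ErbB4myeKO and 2708 to 7347 TPM in those labelled ErbB4FF. Of the 7, 4 had a log2 ratio above 0 and 3 below, with a median of 0.01, and the most abundant, Cd14, Adgre1 and Cd68, had 0.16, 0.01 and -0.12 (exact permutation p = 0.469, 0.875 and 0.438). Fcgr1, the high-affinity IgG receptor gene, was the only one past an unadjusted limma p of 0.05, at -0.86 with an SE of 0.25 and lower in 6 of 6 litters, and Mertk, an apoptotic cell receptor gene, was at 0.14 with an SE of 0.08 and higher in 6 of 6 (exact permutation p = 0.0312 each). The mean was below 1 TPM for 5 of 5 B cell markers, 6 of 7 T or NK cell markers and 4 of 4 erythroid markers. Summed neutrophil markers were 39.6 to 371 TPM and 39.9 to 185 TPM, dendritic cell markers 44.4 to 122 TPM and 30.4 to 93.8 TPM, stromal markers 8.16 to 57.1 TPM and 9.96 to 51.4 TPM, and endothelial markers 4.75 to 15.7 TPM and 6.58 to 20.0 TPM, ErbB4myeKO first, with overlapping ranges. Of 9 neutrophil markers, Retnlg was at 0 in all libraries and 4 passed the filter, S100a8, S100a9, Ngp and Camp, at means of 63.8, 38.1, 6.16 and 3.11 TPM and log2 ratios of 0.30, -0.24, -0.36 and 0.45 (median 0.03). Of 7 dendritic cell markers, Cd209a and Siglech were at 0 in all libraries and 3 passed, Ccr7, Xcr1 and Clec9a, at means of 47.6, 13.3 and 1.67 TPM and log2 ratios of 0.33, 0.63 and 0.10 (median 0.33). Of 7 stromal markers 4 passed, all with a log2 ratio above 0 (median 0.17), and of 4 endothelial markers 2 passed, both with a log2 ratio below 0. In these lists Camp, Xcr1 and Pecam1 of endothelial cells (-1.25) had an unadjusted limma p under 0.05, and 0 markers of any list passed the adjusted p. Their part in the chemokine values was not tested, and in bulk RNA fewer expressing cells and less transcript per cell cannot be told apart.

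Within 200 kb of Cxcl9, Cxcl10 or Cxcl11, 5 of 8 other genes in the table passed the filter and 0 had an unadjusted p under 0.05 in limma, against 8.21% of all genes. Of these, 3 had a log2 ratio above 0 and 2 below, with the largest change in Uso1, at 0.41 with an SE of 0.20. Around Cxcl16, 10 of 21 neighbours passed and 1, Arrb2, was past that threshold (log2 ratio -0.36, SE 0.15), a share near that of all genes, and around Cxcl13 the neighbour that passed, Cnot6l, had a log2 ratio of -0.14 with an SE of 0.15.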

How the data were processed

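RNA from M1-activated BM-Mɸs was sequenced as single-end reads. The authors pseudoaligned reads with kallisto and deposited TPM, limited to the principal isoforms of the APPRIS annotation. The submitters' notes also name CASAVA, sleuth and mm10, with versions not given in the sources used here. The authors also deposited a natural log column from sleuth (the mean normalized estimated counts), used here only for depth. Columns of their own comparison (p-values, q-values and a log2 ratio) were not used.

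Of 29213 lines, 405 repeat a transcript and were counted once, and TPM of 28808 transcripts were summed over 22243 genes. Positions came from GENCODE M21 (GRCm38). Genes averaging 1 TPM or more were tested on log2(TPM + 0.5) in limma 3.58.1 under R 4.3.3 with litter terms, lmFit and trended eBayes, and p-values were adjusted by Benjamini-Hochberg over all of them. Single values were tested by two-sided exact permutation over the 64 within-litter swaps (Python 3.11.15, numpy 2.4.6, pandas 2.3.3, scipy 1.17.1, matplotlib 3.10.9), and correlations over the 720 pairings of 6 litters. The fit and the permutation test were checked on simulated data.

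Litters come from the labels, and both libraries of a litter share 1 batch (A to F for litters 1 to 6), so the litter term also takes up batch. Deviations of littermates from the group means correlated between 0.273 and 0.774. Among the 6 ErbB4FF libraries, each ErbB4myeKO library correlated best with its littermate, in 6 of 6 litters. The margin was narrowest in litter 4 (0.409 against 0.379), and the best match of each ErbB4FF library was not looked up.

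Genes named are the 5 chemokines, the 3 genes most like each, up to 3 genes of each pathway list with the highest mean TPM and up to 3 with the smallest p among those under 0.05, and neighbours within 200 kb. Erbb4 and Lyz2 are named for the design. Cxcr5, Cxcr6, Igkv1-88 and the cell type markers named stand outside this rule and were chosen after their values were seen. The chemokines, lists and motif spellings were chosen with earlier results of these data known. Alternatives were no block, pseudocounts of 0.1 and 1, no filter or 5 TPM, median-ratio rescaling, untrended limma, a term made from 4 Y-linked genes, the most abundant transcript alone and each litter left out.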

Additional observations from a re-analysis of the deposited data

Results flagged for a closer look

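Cxcl13 was listed at 2.985 TPM in the library labelled ErbB4FF of litter 6, far from the other 5 libraries of that group, which were listed at 0. The difference of that litter on the log2(TPM + 0.5) scale, -2.801 against 0 in the other 5 litters, is the same library value seen again, and its size is set by the 0.5 added to a value of 0 and is no fold. Both exceeded Dixon's critical value, which any single nonzero value among zeros does, so the usual chance rate of 1 in 20 does not apply. Of the 15 sets of 6 values examined, these were the 2 that did.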

How the results depend on the processing

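Directions of the log2 ratios of Cxcl9, Cxcl10, Cxcl11 and Cxcl16 held under the 15 alternatives tried in limma, which gave 0.12 to 0.26, -0.20 to -0.13, -0.65 to -0.43 and 0.08 to 0.16, with adjusted p between 0.499 and 1.00. An unadjusted p under 0.05 was kept in 10 of 15 for Cxcl10 and 14 of 15 for Cxcl11, and was lost for both without the replicate block. With the term from Y-linked genes, the log2 ratios of Cxcl9, Cxcl10, Cxcl11 and Cxcl16 were 0.16, -0.15, -0.55 and 0.13. Their unadjusted limma p were 0.151, 0.0480, 0.0129 and 0.188. Without that block, the number of genes with an unadjusted p under 0.05 was 75 in place of 721, and the log2 ratios of Cxcl10 (-0.18) and Cxcl11 (-0.57) had unpaired exact permutation p of 0.463 and 0.236. The pairing of littermates is part of the design. With a litter left out, that number of genes was between 413 (without litter 2) and 864, and 458 without litter 4. Genes with an adjusted p under 0.05 numbered 0 to 1, the 1 being Igkv1-88 without litter 3.

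With 5 litters the smallest exact permutation p is 0.0625, so calls at 0.05 cannot be made and only sizes are compared. With each litter left out in turn the log2 ratio was between -0.20 and -0.13 for Cxcl10 and -0.65 and -0.43 for Cxcl11. The level ratio was between -0.18 and 0.05 (log2) for Cxcl9 over Cxcl10, reversing without litters 1 (0.0546) and 6 (0.0455), 3.07 and 3.37 for Cxcl10 over Cxcl16, and 1.23 and 1.62 for Cxcl16 over Cxcl11. Differences of genotype effects were 0.25 to 0.45 for Cxcl9 minus Cxcl10, 0.59 to 0.91 for Cxcl9 minus Cxcl11, -0.04 to 0.18 for Cxcl9 minus Cxcl16 (-0.0384 without litter 6), 0.23 to 0.46 for Cxcl10 minus Cxcl11, -0.34 to -0.26 for Cxcl10 minus Cxcl16 and -0.81 to -0.51 for Cxcl11 minus Cxcl16. Correlations between effects were -0.907 to 0.349 for Cxcl9 and Cxcl10 (0.349 without litter 6), -0.685 to 0.384 for Cxcl9 and Cxcl16 (0.384 without litter 6), -0.328 to 0.928 for Cxcl10 and Cxcl11 (-0.328 without litter 6, -0.02 without litter 3 and -0.01 without litter 5), and -0.50 to 0.300 for Cxcl11 and Cxcl16 (0.300 and 0.137 without litters 2 and 3), while the sign held at -0.969 to -0.759 for Cxcl9 and Cxcl11 and at 0.326 to 0.951 for Cxcl10 and Cxcl16 (0.326 without litter 6, and 0.125 without litters 1 and 6). The causes of these shifts were not tested. Precision rests on 6 litters, and the table gives no read total for a library.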
